A study of Mus musculus with 24 samples.

Results

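Cultured primary mouse hepatocytes and whole mouse liver, both untreated, were compared hairpin by hairpin in small RNA counts, and the comparison covers the hairpins with 100 or more counts in either column. Of 1186 hairpins in the table, 221 met this rule, 146 of them with 100 or more counts in hepatocytes and 218 in liver (143 in both, 3 in hepatocytes alone and 75 in liver alone). These 221 hairpins held 99.7% of hepatocyte counts and 99.4% of liver counts, so the values below describe nearly all counted reads. Just inside the limit were mir-127 with 100 liver counts and mir-5135 with 100.8. Just outside it were mir-141 with 99.8 and mir-200a with 95.03.

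The study sequenced small RNA from 4 materials of mouse origin under 3 treatments, and each condition was listed for 2 Ion Torrent instruments, PGM and Proton, per the labels. Hepatocytes are the parenchymal cells of the liver, and these were primary cells held in culture with no agent added. The liver was whole tissue from animals with the untreated label, so it holds hepatocytes together with endothelial, stellate, smooth muscle, bile duct and blood cells. Values from the treated columns are set beside some results: hepatocytes with 20 mM acetaminophen, hepatocytes with the same dose and 1 µg/ml granulocyte colony-stimulating factor (G-CSF), liver after acetaminophen at 500 mg/kg, and liver after both agents, with G-CSF at 100 µg/kg. The labels used here give no strain, age, number of animals, number of cultures or time in culture. In the deposited tables each condition has 1 column, taken to combine its 2 libraries. Each group thus has 1 value, no replicate and no test. The intervals below cover counting error only, and reads without molecular identifiers are not independent molecules.

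A microRNA (miRNA) is cut from a hairpin precursor, loaded into an Argonaute protein, and pairs with messenger RNAs mainly through its seed, bases 2 to 8 from the 5′ end, which lowers their translation and stability. miR-122 is the best known miRNA of hepatocytes and acts in lipid metabolism, and miR-192, miR-194 and miR-215 are shared by liver, gut and kidney epithelium. Other liver cells carry their own miRNAs: miR-126 in endothelium, miR-143 and miR-145 in smooth muscle, miR-199 and miR-214 in stellate cells and fibroblasts, miR-142, miR-223 and miR-150 in leukocytes, and miR-451, miR-144 and miR-486 in red cells. miR-21 and the miR-17-92 cluster are known for their increase in growing, injured and cultured cells.

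The mature sequences on which the differences turn are from RefSeq (GRCm38.p6), written 5′ to 3′ with the seed in capitals. The first set holds miRNAs that were higher in hepatocytes, the 3 entries with miR-21-like sequence, miR-17, miR-18a, miR-19, miR-503, miR-7a and miR-101a, together with miR-92a and miR-322, which are neighbours of 2 of these and were not higher by 2-fold.
miR-21a-5p: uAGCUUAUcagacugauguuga
miR-21b: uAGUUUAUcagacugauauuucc
miR-3965: uGCUUAUCagccugauguu
miR-17-5p: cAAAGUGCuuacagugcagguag
miR-18a-5p: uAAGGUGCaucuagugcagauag
miR-19a-3p: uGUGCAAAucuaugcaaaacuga
miR-19b-3p: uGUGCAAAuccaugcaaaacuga
miR-92a-3p: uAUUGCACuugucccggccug
miR-503-5p: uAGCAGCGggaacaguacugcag
miR-322-5p: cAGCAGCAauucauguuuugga
miR-7a-5p: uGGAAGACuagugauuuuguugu
miR-101a-3p: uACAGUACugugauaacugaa
miR-21b differed from miR-21a-5p at 4 of 22 bases, 1 of them in the seed. miR-3965 aligned with miR-21a-5p at an offset of 1 base and differed at 2 of 19 bases. miR-19a-3p and miR-19b-3p differed at 1 of 23 bases and share the seed GUGCAAA.

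The second set holds miRNAs of the hepatocyte list, and the third miRNAs of other liver cells that were lower in hepatocytes. The third also holds miR-139, which is on no list, and let-7a for its family.
miR-192-5p: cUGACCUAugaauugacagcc
miR-215-5p: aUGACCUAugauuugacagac
miR-194-5p: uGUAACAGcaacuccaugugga
miR-192-5p and miR-215-5p share the seed UGACCUA and differed at 3 of 21 bases.
miR-126a-3p: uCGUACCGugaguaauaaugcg
miR-199a-3p: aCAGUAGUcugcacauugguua
miR-214-3p: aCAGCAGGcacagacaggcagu
miR-451a: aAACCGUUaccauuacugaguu
miR-223-3p: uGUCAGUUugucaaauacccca
miR-342-3p: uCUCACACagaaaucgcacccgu
miR-139-5p: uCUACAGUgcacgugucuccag
let-7a-5p: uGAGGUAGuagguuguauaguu
The hairpins of these miRNAs sit in different kinds of host gene (GRCm38; overlaps from the GENCODE annotation of that build). Mir21a (chr11:86584067-86584158, minus strand) lies in an exon of Vmp1, and Mir126a (chr2:26591357-26591429, plus strand) in an exon of Egfl7, a gene of endothelial cells. Mir214 (chr1:162223368-162223477, plus strand) lies in an exon of the noncoding Dnm3os, Mir342 (chr12:108658620-108658718, plus strand) in an intron of Evl and Mir139 (chr7:101475376-101475443, plus strand) in an intron of Pde2a. Mir17 to Mir92-1 lie in exons of the noncoding Mir17hg on chromosome 14, Mir17 at chr14:115043671-115043754, plus strand. Mir503 (chrX:53053984-53054054, minus strand) and Mir192 (chr19:6264844-6264932, plus strand) overlap no other annotated gene.

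The untreated hepatocyte column held 838624 hairpin counts and the untreated liver column 1307523, in estimated counts that had not been normalised. Among hairpins with a share of 0.1% or more, the half-width of the 95% Wilson interval was at most 6.69% of the share in hepatocytes (98 hairpins) and at most 5.38% in liver (108 hairpins). A hairpin with 0 counts could hold a share of up to 0.000358% in hepatocytes and 0.000229% in liver, the limit set by 3 counts. The untreated hepatocyte column stood apart from both treated hepatocyte columns: the 4 miR-21 entries together took 40.4% of it, against 1.82% with acetaminophen and 1.82% with acetaminophen plus G-CSF. Treated values are given beside the main results that rest on this column, and not beside every hairpin. Hepatocyte totals were 179751 hairpin counts with acetaminophen and 139361 with acetaminophen plus G-CSF, and liver totals 111316 and 1095868. In the same order 3 counts are a share of 0.00167%, 0.00215%, 0.00270% and 0.000274%, so small treated shares rest on few counts. The acetaminophen liver column also had 5.65 hairpin counts per mature count, against 25.1 to 33.7 in the other 5 columns of hepatocytes and liver.

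Shares add up to a whole, so the large miR-21 signal in hepatocytes lowers the share of every other hairpin there. The median hairpin was 2.30-fold lower in hepatocytes (log2 ratio -1.20). Scaling by trimmed mean of M values (TMM), which centres the bulk of hairpins, moved every log2 ratio up by 1.13 and the median to -0.07, and leaving the miR-21 entries out of the totals moved the median to -0.47. Directions below are for shares of the column total, and each family whose direction turns with the scaling is named as such.

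Of the 221 hairpins, many more held a clearly higher share in liver than in hepatocytes. The count limit favours this split, since 75 hairpins passed it through liver alone and 3 through hepatocytes alone. The liver column was also deeper. A hairpin was called different where the ratio of shares was 2-fold or more and its exact 95% interval excluded equality: 30 of 221 hairpins were higher in hepatocytes (13.6%), 124 were lower (56.1%) and 67 were not called. Calls in the higher direction made up 19.5% of all calls on shares and 44.5% with TMM, which called 53 higher (24%) and 66 lower (29.9%). All 30 higher calls and 66 of the 124 lower calls were made under both scalings. Differences of 10-fold or more ran mostly one way, with 10 hairpins higher in hepatocytes (4.52%) and 47 lower (21.3%), and 12 of these were lower by 100-fold or more. With TMM 16 were higher and 35 lower by 10-fold or more, and with similar hairpins summed to 158 signals, on shares, 5 were higher and 39 lower. Of the 47, 14 belonged to the endothelial, stellate, smooth muscle, leukocyte and erythroid lists, 2 to the epithelial list, 5 to the miR-181 family and 6 to the Dlk1-Dio3 cluster, and 13 were on no list. Of the 30 higher hairpins, 9 belonged to miR-17-92 and its paralogues and 9 were on no list.

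**Figure D1:**
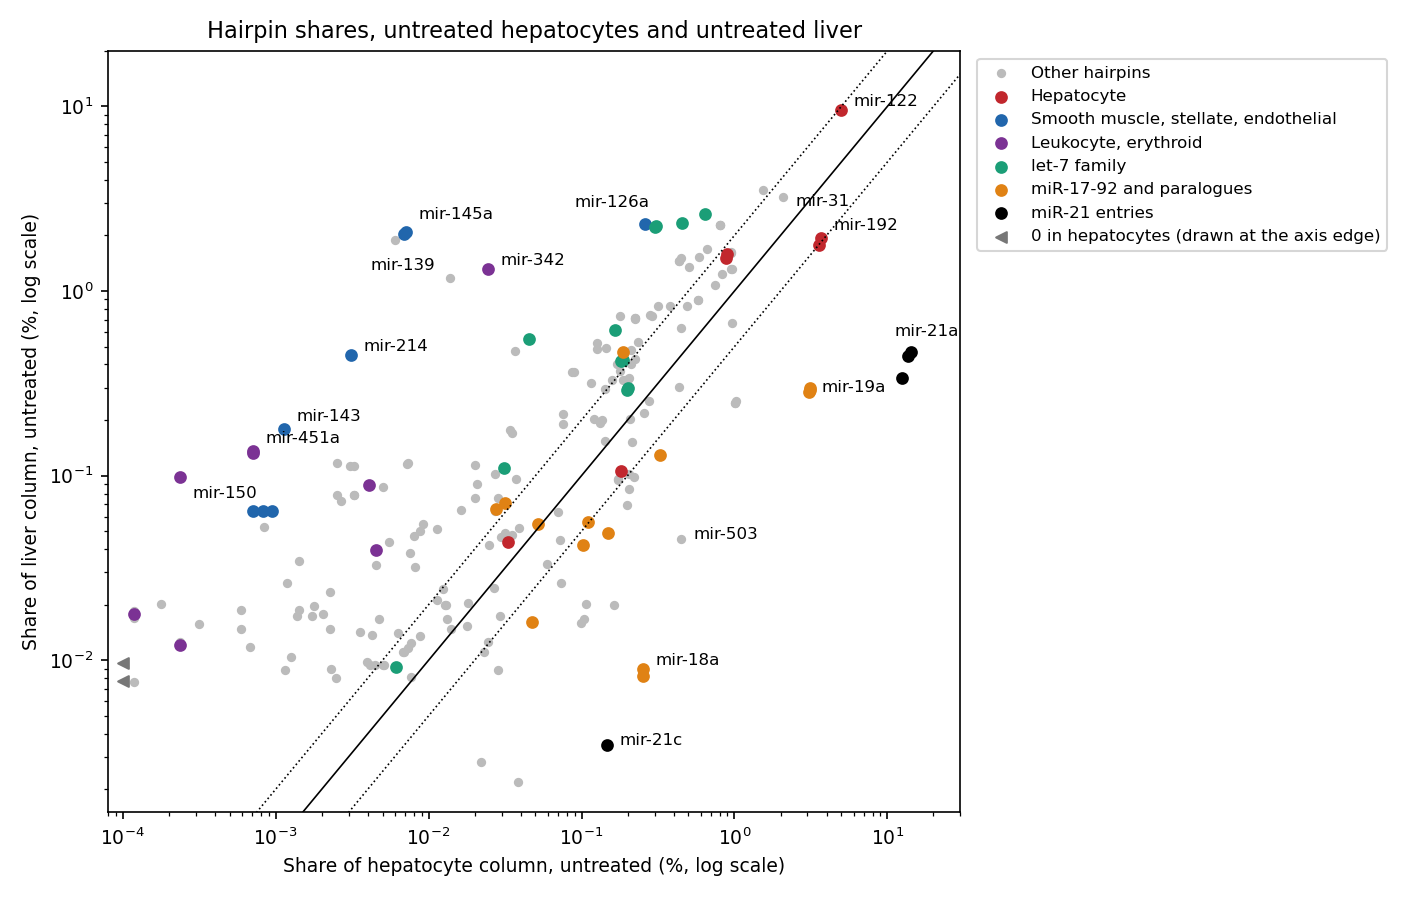
Share of the untreated hepatocyte column (x axis, %, log scale) against share of the untreated liver column (y axis, %, log scale) for the 221 hairpins, 1 point each. The solid line marks equal shares and the dotted lines a 2-fold difference. Coloured points are the listed groups: smooth muscle, stellate, leukocyte and erythroid hairpins lie far above the lines, mir-122 and mir-192 lie near them, and the miR-21 and miR-19 entries lie to the right.

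Few hairpins dominated each column, and they were different ones. The 10 largest took 63.9% of hepatocyte counts and 32.6% of liver counts. In hepatocytes they were mir-21a, mir-3965, mir-21b, mir-122, mir-192, mir-215, mir-19b-1, mir-19b-2, mir-19a and mir-31. In liver they were mir-122, mir-191, mir-31, let-7a-1, let-7a-2, mir-126a, mir-103-2, mir-103-1, mir-107 and let-7c-1. Of the liver set, mir-191 had 12923 counts (1.54%) in hepatocytes, against 46049.6 (3.52%) in liver, 2.29-fold (95% interval 2.24 to 2.33) lower in hepatocytes (log2 with TMM -0.06, not called). The 3 miR-103 and miR-107 hairpins, with near-equal counts in each column, summed to 2.42% of hepatocyte counts and 6.82% of liver counts, a log2 ratio of -1.50. miR-103 and miR-107 are regulators of insulin sensitivity in mouse liver and fat.

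The hepatocyte identity miRNAs took a similar summed share of both columns, while single members differed by about 2-fold in either direction. The list of 7 hairpins (mir-122, mir-192, mir-194-1, mir-194-2, mir-215, mir-148a and mir-802) took 14.3% of hepatocyte counts and 16.5% of liver counts. Of the 7, 1 was called higher, none lower and 6 were not called, and with TMM 3 were higher (mir-192, mir-215 and mir-148a) and none lower. Of these, mir-192 and mir-215 may share reads. The median log2 ratio was -0.39 on shares, which turns to 0.74 with TMM and to 0.34 without the miR-21 entries. It was 1.02 in the acetaminophen pair (4 higher, 2 lower) and -0.88 in the acetaminophen plus G-CSF pair (2 higher, 2 lower). All 7 defining markers of the label were detected in the hepatocyte column, where each had 279 counts or more.

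mir-122 was the largest hairpin of liver and the fourth largest of hepatocytes. It had 41925 counts (4.999%) in hepatocytes, against 125059 (9.56%) in liver, with Wilson intervals of 4.95 to 5.05% and 9.51 to 9.62%. Its share was 1.91-fold (95% interval 1.89 to 1.93) lower in hepatocytes, under the limit for a call, and the direction turned with TMM (log2 0.19). In the treated columns it was 5.16% with acetaminophen and 3.10% with acetaminophen plus G-CSF in hepatocytes, against 15.6% and 5.69% in the liver columns of the same 2 treatments. All 3 hepatocyte columns lay below all 3 liver columns. In the mature table miR-122-5p had 3767 and 11657 counts, 14.1% of hepatocyte and 23.6% of liver mature counts.

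mir-192 and mir-215, whose mature forms share a seed and act in the p53 response, went the other way. mir-192 had 31067 counts (3.70%) in hepatocytes, against 25233 (1.93%) in liver, 1.92-fold (95% interval 1.89 to 1.95) higher and just under the limit for a call. mir-215 had 29995 counts (3.58%) in hepatocytes, against 23112 (1.77%) in liver, 2.02-fold (95% interval 1.99 to 2.06) higher, just past it. Both were among the 4 hairpins (1.81%) whose 3 hepatocyte columns all exceeded the 3 liver columns, with mir-320 and mir-362. mir-192 and mir-215 matched with 1 mismatch in an 18-base window and had similar counts in each column, so they may share reads. For mir-192 the treated values were 7.11% with acetaminophen and 3.89% with acetaminophen plus G-CSF in hepatocytes, against 1.44% and 1.53% in the liver columns of the same 2 treatments. Within a column, which no scaling changes, the ratio of mir-122 to mir-192 was 1.35 in hepatocytes and 4.96 in liver. It was 0.726 and 0.796 in the treated hepatocyte columns and 10.8 and 3.72 in the treated liver columns, so the groups did not overlap.

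The other hepatocyte hairpins were not called in either direction on shares. mir-194-1 and mir-194-2, which encode 1 mature miRNA, took 0.885% of hepatocyte counts and 1.52% of liver counts (log2 -0.78) and 0.900% of hepatocyte counts and 1.58% of liver counts (log2 -0.81), and both ratios turn positive with TMM (0.35 and 0.32). mir-148a, abundant in liver and a regulator of cholesterol uptake, had 1515 counts (0.181%) in hepatocytes, against 1391 (0.106%) in liver (log2 0.76 on shares, and 1.89 and called higher with TMM). mir-802, which is known for its role in glucose metabolism of mouse liver, had 279 counts (0.0333%) in hepatocytes, against 570 (0.0436%) in liver (log2 -0.39 on shares and 0.74 with TMM). Its shares in the treated columns were 0.0350% with acetaminophen and 0.0323% with acetaminophen plus G-CSF in hepatocytes, against 0.157% and 0.0947% in the liver columns of the same 2 treatments, so all 3 hepatocyte columns were below all 3 liver columns.

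miRNAs of the other liver cells were far lower in the cultured hepatocytes. The 18 hairpins of the endothelial, stellate, smooth muscle, leukocyte and erythroid lists, 16 of them above the count limit, summed to 0.318% of hepatocyte counts and 9.09% of liver counts, a 28.6-fold difference (95% interval 27.5 to 29.7). All 16 were called lower in hepatocytes, on shares and with TMM, against 56.1% and 29.9% of all 221 hairpins. Of these 16, only mir-126a and mir-342 had 100 or more counts in hepatocytes. The rest passed the limit through liver alone, so the count of calls is partly set by that limit. The summed share of the 18 hairpins was 1.25% and 0.813% in the treated hepatocyte columns, and 16.3% and 9.03% in the treated liver columns. In bulk RNA, fewer cells of a type and less of the miRNA per cell cannot be told apart.

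The smooth muscle list showed the lowest median of the 25 lists, at -8.19 (all 3 called lower), and summed to 0.0152% of hepatocyte counts and 4.30% of liver counts. mir-145a had 60.1 counts (0.00716%) in hepatocytes, against 27287 (2.09%) in liver, 291-fold (95% interval 227 to 382) lower in hepatocytes. mir-143, its neighbour in the genome, had 9.50 and 2331 counts, 157-fold (95% interval 81.2 to 312) lower. With treatment mir-145a was 0.0482% with acetaminophen and 0.0149% with acetaminophen plus G-CSF in hepatocytes, against 1.08% and 1.82% in the liver columns of the same 2 treatments. Every hepatocyte column was below every liver column. mir-145b and mir-6402 had liver counts of 26550.5 and 24679 near that of mir-145a and log2 ratios of -8.20 and -8.28. Their mature sequences resemble that of miR-145a-5p, so the 3 entries may hold the same reads and are uncertain as separate miRNAs.

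The stellate list had a median of -6.40, with all 4 hairpins called lower, and summed to 0.00559% of hepatocyte counts and 0.646% of liver counts. mir-214 had 26 counts (0.00310%) in hepatocytes, against 5909 (0.452%) in liver, 146-fold (95% interval 99.4 to 223) lower. The 3 miR-199 hairpins, which share a mature 3p sequence, had 5.95 to 7.95 counts in hepatocytes and 846 in liver each, 78.1-fold lower as a sum (95% interval 50.6 to 125.4). miR-199a-3p and miR-214-3p are made from the same noncoding transcript, Dnm3os, and are known for their rise in activated stellate cells. Under both treatments mir-214 was 0.0462% with acetaminophen and 0.0265% with acetaminophen plus G-CSF in hepatocytes, against 0.206% and 0.338% in the liver columns of the same 2 treatments, and the 2 materials did not overlap.

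mir-126a, the endothelial miRNA, was lower in hepatocytes by less than the smooth muscle and stellate hairpins. It had 2185 counts (0.261%) in hepatocytes, against 30125 (2.30%) in liver, 8.84-fold (95% interval 8.47 to 9.24) lower. The treated columns had 0.981% with acetaminophen and 0.690% with acetaminophen plus G-CSF in hepatocytes, against 2.19% and 1.43% in the liver columns of the same 2 treatments, again with no overlap, although the treated hepatocyte columns held more of it than the untreated one. The other endothelial hairpin, mir-126b, had 13 and 23 counts and lay under the count limit. Within a column the ratio of mir-126a to mir-122 was 0.0521 in untreated hepatocytes and 0.241 in untreated liver. It was 0.190 and 0.223 in the treated hepatocyte columns and 0.141 and 0.251 in the treated liver columns, so on this scale the materials overlapped.

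All 4 leukocyte hairpins above the limit were called lower, with a median of -5.11 and sums of 0.0331% of hepatocyte counts and 1.54% of liver counts. mir-342, a miRNA of lymphoid and myeloid cells, carried most of the liver sum, with 204 counts (0.0243%) in hepatocytes, against 17205 (1.32%) in liver, 54.1-fold (95% interval 47.1 to 62.4) lower. mir-150, a miRNA of mature lymphocytes, had 2 and 1287 counts, 413-fold (95% interval 114 to 3412) lower. mir-223, a miRNA of neutrophils and other myeloid cells, had 34 and 1169 counts, 22.1-fold (95% interval 15.7 to 32.00) lower. mir-142, found in all blood lineages, had 38 and 516 counts, 8.70-fold (95% interval 6.26 to 12.4) lower. mir-142b had 0 counts in both columns.

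The 4 erythroid hairpins were nearly missing from hepatocytes, with 1 to 6 counts each, a median log2 ratio of -7.39 and sums of 0.00179% of hepatocyte counts and 0.299% of liver counts. mir-451a had 6 counts (0.000715%) in hepatocytes, against 1773 (0.136%) in liver, 189.5-fold (95% interval 86.9 to 517) lower. mir-451b overlaps mir-451a on the genome and had the same 6 hepatocyte counts, so the pair may hold the same reads. mir-486 had 1 and 234 counts, 150.1-fold (95% interval 26.7 to 5953) lower, and overlaps mir-3107, with 1 and 243 counts. mir-144 had 2 and 158 counts, 50.6-fold (95% interval 13.8 to 422) lower. The treated columns had mir-451a at 0.00306% with acetaminophen and 0.00108% with acetaminophen plus G-CSF in hepatocytes, against 4.82% and 0.908% in the liver columns of the same 2 treatments: liver columns varied much more among themselves than for mir-145a, and all exceeded all hepatocyte columns. The hepatocyte share of 0.00108% is under that of 3 counts in its column (0.00215%).

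Bile duct and epithelial hairpins split. mir-200b had 2.67 and 206 counts, 49.5-fold (95% interval 14.9 to 215.3) lower in hepatocytes, and mir-200c 5.67 and 155, 17.6-fold (95% interval 7.44 to 45.8) lower. The other members of the miR-200 family lay under the count limit, at 3.55 and 99.8 counts for mir-141, 3.55 and 95.03 for mir-200a and 0 and 64.3 for mir-429. mir-203, a miRNA of keratinised and other epithelia, had 1710 counts (0.204%) in hepatocytes, against 1337 (0.102%) in liver, 1.99-fold (95% interval 1.86 to 2.14) higher and not called. With 2 of 3 called lower, the list's median was -4.13, while its summed share was higher in hepatocytes (0.206% of hepatocyte counts and 0.150% of liver counts), with mir-203 the largest of its hairpins. In the acetaminophen plus G-CSF columns mir-200c was at 0.0297% in hepatocytes and 0.0106% in liver, the opposite direction.

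**Figure D2:**
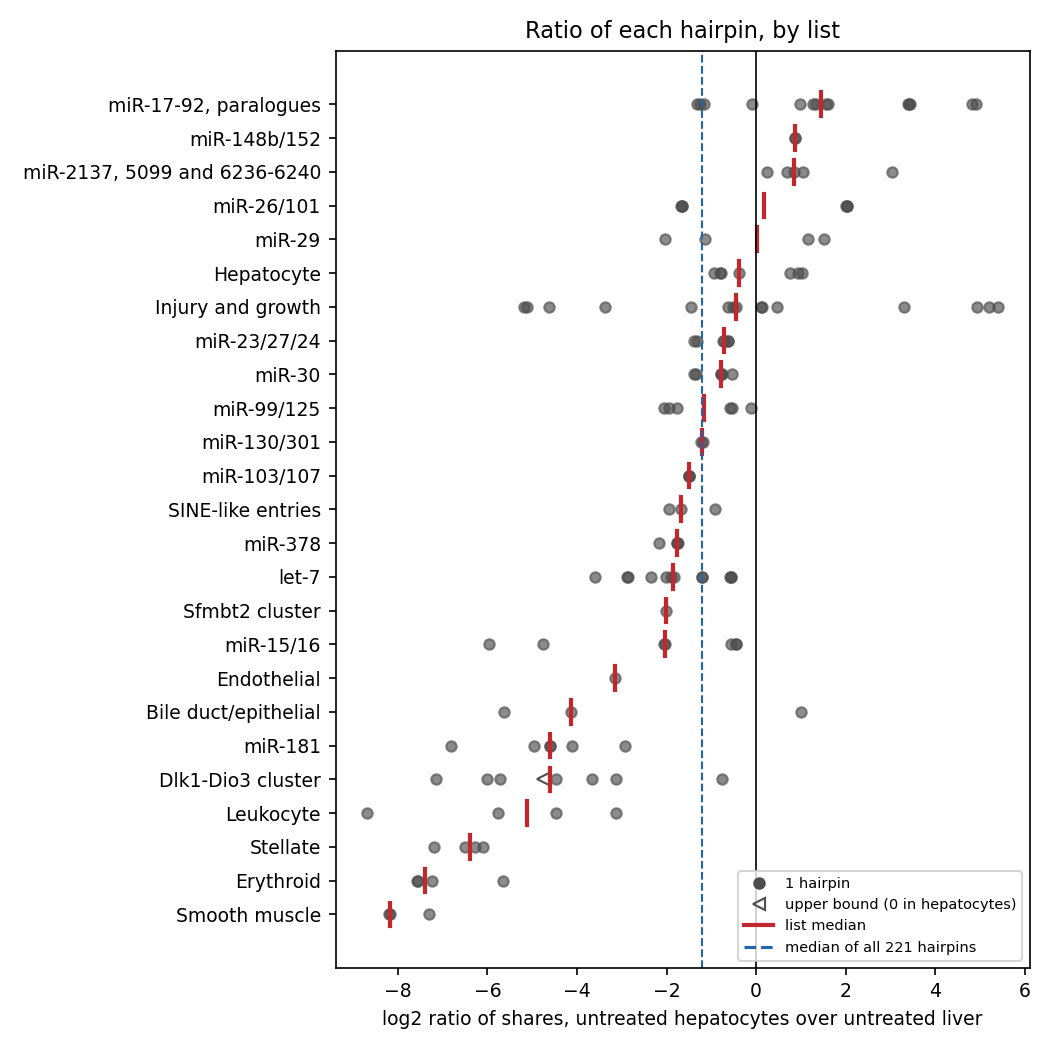
log2 ratio of shares, untreated hepatocytes over untreated liver (x axis), for every hairpin of the 25 lists with 100 or more counts in either column, 1 row per list. Grey points are hairpins, the open triangle is a bound for a hairpin with 0 hepatocyte counts, red marks are list medians and the dashed line is the median of all 221 hairpins (-1.20). Smooth muscle, erythroid, stellate and leukocyte hairpins lie farthest left, and miR-17-92 and the injury and growth list reach farthest right.

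Outside these lists, mir-139 was the most abundant hairpin to be lower by more than 10-fold, apart from the miR-145 entries and mir-342. It is hosted by Pde2a and had 116 counts (0.0138%) in hepatocytes, against 15289.8 (1.17%) in liver, 84.5-fold (95% interval 70.4 to 102) lower. mir-10b, a Hox cluster miRNA, had 21.2 and 1521 counts, 46.1-fold (95% interval 30.3 to 75.3) lower. The 6 miR-181 hairpins, best known from lymphocytes and endothelium, were all called lower (median -4.60) and summed to 0.0154% of hepatocyte counts and 0.352% of liver counts. Of 44 hairpins of the imprinted Dlk1-Dio3 cluster in the table, 8 passed the limit and 7 of them were called lower (median -4.61). The exception, mir-380, had 0.120% of hepatocyte counts and 0.202% of liver counts (log2 -0.75, and 0.38 with TMM). Apart from mir-380, these miR-181 and Dlk1-Dio3 hairpins passed the limit through liver alone, so their counts of lower calls are partly set by it. mir-665 of the same cluster had 0 counts in hepatocytes and 127 in liver, 27.2-fold lower against a floor of 3 counts, with a 95% interval from 21.8-fold. mir-5135, on no list, also had 0, against 100.8 in liver, 21.6-fold lower against the same floor, with a 95% interval from 17.2-fold.

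miR-21 was the dominant miRNA of the cultured cells and a minor one of liver. mir-21a had 119094 counts (14.2%) in hepatocytes, against 6097 (0.466%) in liver, with Wilson intervals of 14.1 to 14.3% and 0.455 to 0.478%. It was 30.5-fold (95% interval 29.7 to 31.3) higher in hepatocytes and ranked first there and 55th in liver. The entries mir-3965, with 114508 counts (13.7%) in hepatocytes, against 5819.7 (0.445%) in liver, and mir-21b, with 103809 counts (12.4%) in hepatocytes, against 4416 (0.338%) in liver, had similar ratios (30.7-fold (95% interval 29.9 to 31.5) and 36.7-fold (95% interval 35.6 to 37.8)). Their sequences above are near copies of miR-21a-5p, so these entries and mir-21c are uncertain as separate miRNAs and may split the same reads. Summed, the 4 entries took 40.4% of hepatocyte counts and 1.25% of liver counts, 32.2-fold higher (95% interval 31.7 to 32.7). Within a column the ratio of mir-21a to mir-122 was 2.84 in hepatocytes and 0.0488 in liver. It was 0.132 and 0.236 in the treated hepatocyte columns and 0.109 and 0.303 in the treated liver columns.

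This difference was seen in the untreated pair of columns and not in the treated pairs. mir-21a was 0.679% with acetaminophen and 0.731% with acetaminophen plus G-CSF in hepatocytes, against 1.69% and 1.72% in the liver columns of the same 2 treatments, log2 ratios of -1.32 and -1.24 against 4.93 in the untreated pair. The untreated hepatocyte column was the highest of the 6 columns and the untreated liver column the lowest, with the 4 treated columns between them. The contrast between pairs was not tested, since each has 1 column a side. Whether the value belongs to untreated cells or to that column alone cannot be told apart.

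miR-19, a member of miR-17-92, was the other abundant miRNA to be much higher in hepatocytes. mir-19a had 25692 counts (3.06%) in hepatocytes, against 3698 (0.283%) in liver, 10.8-fold (95% interval 10.5 to 11.2) higher, and the 2 copies of mir-19b had nearly the same counts and ratios (log2 3.39 and 3.42). Together the 3 hairpins took 9.30% of hepatocyte counts and 0.871% of liver counts, 10.7-fold higher (95% interval 10.5 to 10.9). mir-18a had 2116 counts (0.252%) in hepatocytes, against 117 (0.00895%) in liver, 28.2-fold (95% interval 23.4 to 34.3) higher, and mir-18b, its near copy from the X-linked cluster, a log2 ratio of 4.92. mir-17 had 2727 counts (0.325%) in hepatocytes, against 1690.1 (0.129%) in liver, 2.52-fold (95% interval 2.37 to 2.67) higher, and mir-20a, with the same seed, a log2 ratio of 1.60. mir-92a-1, last in the same transcript, went the other way with 265 counts (0.0316%) in hepatocytes, against 927 (0.0709%) in liver, 2.24-fold (95% interval 1.96 to 2.58) lower and near equality with TMM (log2 -0.03).

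Over miR-17-92 and both paralogous clusters, 9 of 14 hairpins were called higher and 3 lower, with a median of 1.45 and sums of 10.8% of hepatocyte counts and 1.84% of liver counts. With TMM 11 were higher and none lower. The 3 lower on shares were mir-92a-1, mir-92a-2 and mir-93. miR-93-5p has the same seed, AAAGUGC, as miR-17-5p, whose hairpin was called higher, so the seed did not separate the directions. The ratio of mir-19a to mir-17 within a column was 9.42 in hepatocytes and 2.19 in liver. That of mir-18a to mir-17 was 0.776 and 0.0692, and that of mir-92a-1 to mir-17 was 0.0973 and 0.548. In the untreated pair the members of 1 transcript thus differed in opposite directions. With acetaminophen the mir-92a-1 ratio was 1.10 in hepatocytes and 0.371 in liver, the reverse of the untreated pair. With acetaminophen plus G-CSF it was 1.03 and 1.21. The mir-19a and mir-18a ratios were higher in hepatocytes in both treated pairs. In the treated columns the 3 miR-19 hairpins summed to 1.28% and 1.44% in hepatocytes and 1.35% and 1.13% in liver, where none of the 14 hairpins was called higher in hepatocytes.

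**Figure D3:**
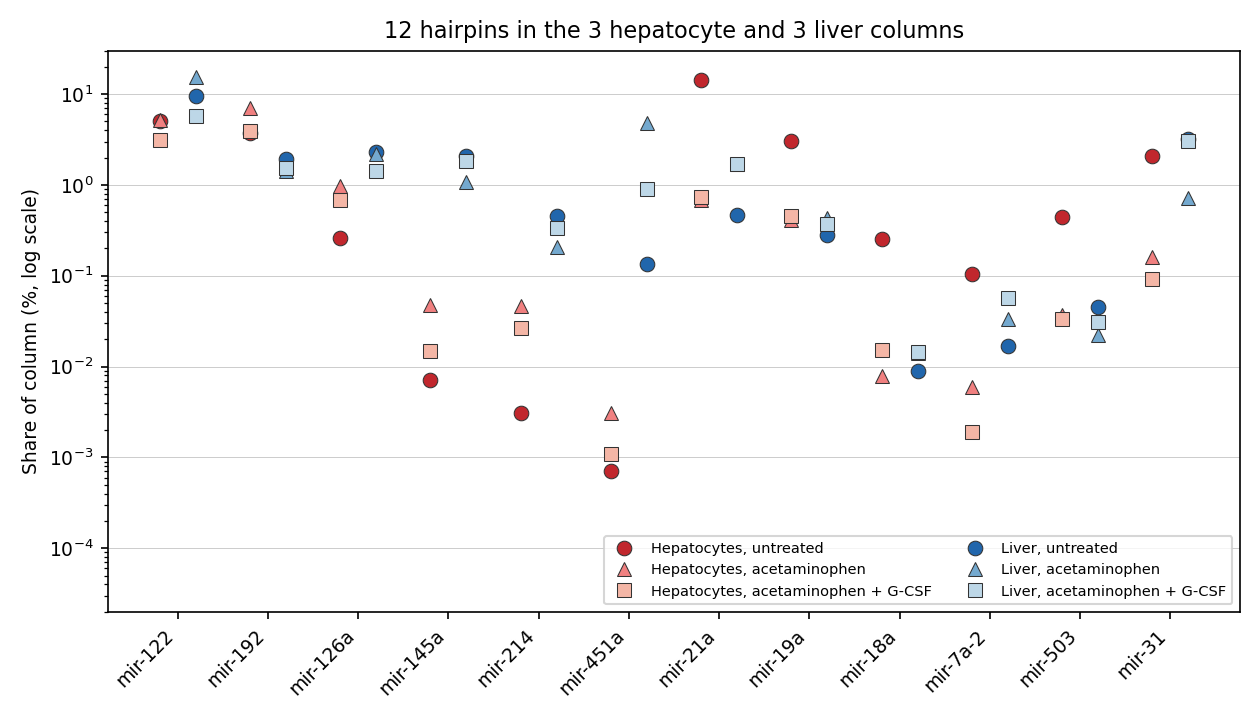
Share of the column total (y axis, %, log scale) of 12 hairpins in the 3 hepatocyte columns (red, left of each name) and the 3 liver columns (blue, right). Circles are untreated, triangles acetaminophen and squares acetaminophen plus G-CSF. For mir-145a, mir-214 and mir-451a the materials are apart under all treatments, while for mir-21a, mir-19a, mir-18a, mir-7a-2 and mir-503 the untreated hepatocyte circle alone lies above the rest.

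The list of injury and growth miRNAs did not move as 1 group. Of 15 hairpins above the limit, 4 were called higher (mir-21a, mir-21b, mir-21c and mir-503), 5 lower and 6 were not called, against 7 higher and 4 lower with TMM. The list had a median of -0.46 that turns to 0.67 with TMM, and sums of 30.2% of hepatocyte counts and 5.57% of liver counts that are mostly miR-21. mir-503, a miRNA that slows the cell cycle and shares most of its seed with miR-15/16, had 3740 counts (0.446%) in hepatocytes, against 591 (0.0452%) in liver, 9.87-fold (95% interval 9.04 to 10.8) higher. Its neighbour mir-322, with 587 counts (0.0700%) in hepatocytes, against 830 (0.0635%) in liver, was not called (log2 0.14), and the ratio of mir-503 to mir-322 within a column was 6.37 in hepatocytes and 0.712 in liver. mir-503 in the treated columns was 0.0373% with acetaminophen and 0.0330% with acetaminophen plus G-CSF in hepatocytes, against 0.0225% and 0.0306% in the liver columns of the same 2 treatments. There the ratio of mir-503 to mir-322 was 2.23 and 0.622 in hepatocytes, against 0.342 and 0.728 in liver.

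The 5 hairpins of this list called lower were mir-146a, mir-146b, mir-132, mir-212 and mir-221. mir-146a and mir-146b, feedback inhibitors of Toll-like receptor signalling, had 27.3 and 25.8 counts in hepatocytes, against 1479 and 1468 in liver, 34.7-fold (95% interval 24.05 to 53.5) and 36.4-fold (95% interval 24.6 to 55.6) lower. mir-132 and mir-212, made from 1 transcript under CREB, had 5 and 19 counts against 193.6 and 306, 24.8-fold (95% interval 10.5 to 77.5) and 10.3-fold (95% interval 6.50 to 17.4) lower. mir-221, which represses the cell cycle inhibitor p27, had 970.2 counts (0.116%) in hepatocytes, against 4134 (0.316%) in liver, 2.73-fold (95% interval 2.55 to 2.93) lower and not called with TMM, while its neighbour mir-222 had 0.213% of hepatocyte counts and 0.153% of liver counts (log2 0.47, and 1.60 and called higher with TMM). mir-31 was abundant in both, with 17449 counts (2.08%) in hepatocytes, against 42007 (3.21%) in liver (log2 -0.63, and 0.50 with TMM). The p53 target mir-34a (log2 -0.51), mir-155 (-0.46) and the hypoxia-induced mir-210 (0.12) were not called on shares. With TMM mir-34a (0.62) and mir-155 (0.67) turn positive without a call, and mir-210 (1.25) is called higher, as is mir-322 (1.27). mir-155, an NF-kB-responsive miRNA, had log2 ratios of 3.04 and 4.43 in the 2 treated pairs. mir-34b and mir-34c lay under the limit, with 36.7 and 15 counts and 31.7 and 23 counts.

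Other hairpins were higher in hepatocytes without being on that list. The 3 miR-101 hairpins, which have similar counts, may share reads and encode a repressor of Ezh2, summed to 3.03% of hepatocyte counts and 0.749% of liver counts, 4.04-fold higher (95% interval 3.95 to 4.13). Their treated sums were 1.07% with acetaminophen and 1.94% with acetaminophen plus G-CSF in hepatocytes, against 1.13% and 0.839% in liver, so none of the 3 was called in the acetaminophen pair and all 3 were called higher in the other. mir-7a-2 had 866 counts (0.103%) in hepatocytes, against 218 (0.0167%) in liver, 6.18-fold (95% interval 5.33 to 7.22) higher. Among treated columns mir-7a-2 was 0.00593% with acetaminophen and 0.00191% with acetaminophen plus G-CSF in hepatocytes, against 0.0334% and 0.0569% in the liver columns of the same 2 treatments, the opposite direction. Both hepatocyte shares rest on few counts, and 0.00191% is under the share of 3 counts in that column (0.00215%). mir-2137 had 1376 counts (0.164%) in hepatocytes, against 261 (0.01996%) in liver, 8.22-fold (95% interval 7.20 to 9.42) higher, and in the treated columns it was 7.28% with acetaminophen and 6.91% with acetaminophen plus G-CSF in hepatocytes, against 0.647% and 0.209% in the liver columns of the same 2 treatments. mir-182 had 323 and 28.5 counts, 17.7-fold (95% interval 12.2 to 27.5) higher, while its treated shares were 0.00389% with acetaminophen and 0.00251% with acetaminophen plus G-CSF in hepatocytes, against 0.00629% and 0.00365% in the liver columns of the same 2 treatments. Except in liver after both agents, these treated shares rest on few counts. mir-362 had 185 and 37, 7.80-fold (95% interval 5.45 to 11.4) higher. mir-182, mir-362 and mir-101 are named here outside the naming rule, after their values were seen.

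The let-7 family, which restrains growth and marks differentiated cells, was lower in hepatocytes as a family. Its 12 hairpins, mir-98 included, took 2.72% of hepatocyte counts and 12.1% of liver counts, 4.45-fold lower (95% interval 4.39 to 4.51). Of the 12, 9 were called lower and none higher, against 56.1% lower among all 221 hairpins. With TMM 4 were lower and none higher, against 29.9% lower among all. The median was -1.86 on shares and -0.73 with TMM, relative to -1.20 and -0.07 for all 221 hairpins. let-7a-1 had 5404 counts (0.644%) in hepatocytes, against 34090.2 (2.61%) in liver, 4.05-fold (95% interval 3.93 to 4.16) lower, and let-7c-1 had 2579 counts (0.308%) in hepatocytes, against 29297 (2.24%) in liver, 7.29-fold (95% interval 6.998 to 7.59) lower. The range ran from let-7b (log2 -3.59) to mir-98 and the let-7f hairpins (log2 -0.55 to -0.59). In the treated columns the family took 1.17% and 0.818% in hepatocytes and 8.53% and 19.1% in liver, and all 12 hairpins lay below every liver column in every hepatocyte column.

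Among the other families, the medians of most lay near that of all hairpins, and counts of lower hairpins are to be read against 56.1% lower among all 221 on shares. The miR-15/16 family, which targets cyclins, had 0 higher and 4 lower of 7, median -2.03 (-0.90 with TMM): mir-16-1 took 0.956% of hepatocyte counts and 1.31% of liver counts, while mir-497 had 7 and 685 counts. The miR-378 family, whose best known member lies in the gene of the metabolic regulator Ppargc1b, had 0 higher and 4 lower of 4, median -1.76 (-0.63 with TMM), and went the other way in the treated pairs, with 3 of 4 called higher in each, medians of 2.53 with acetaminophen and 2.29 with acetaminophen plus G-CSF, and sums of 8.87% and 7.04% in hepatocytes, against 1.54% and 1.47% in liver. The group of miR-99, miR-100 and miR-125 had 0 higher and 3 lower of 6, median -1.16 (-0.03 with TMM), the miR-130 family 0 higher and 2 lower of 2, median -1.21 (-0.08 with TMM), with medians of 2.11 with acetaminophen and 1.23 with acetaminophen plus G-CSF and both hairpins called higher in each treated pair, and miR-103 with miR-107 0 higher and 3 lower of 3, median -1.50 (-0.37 with TMM). The miR-30 family, abundant in epithelia, had 0 higher and 2 lower of 6, median -0.77 (0.36 with TMM), and the miR-23/27/24 clusters had 0 higher and 2 lower of 6, median -0.73 (0.41 with TMM), so the direction of both turned with the scaling. That of miR-30 was also positive in the treated pairs (0.11 with acetaminophen and 0.52 with acetaminophen plus G-CSF). miR-148b and miR-152 had 0 higher and 0 lower of 2, median 0.87 (2.001 with TMM), and 0.50 with acetaminophen and -0.24 with acetaminophen plus G-CSF in the treated pairs. Of 81 hairpins of the Sfmbt2 repeat cluster in the table, 1 passed the limit and was lower (log2 -2.00, and 1.05 with acetaminophen and 0.81 with acetaminophen plus G-CSF in the treated pairs). Of 13 entries that resemble SINE repeats, 3 passed and 2 were lower (median -1.69, and -1.37 with acetaminophen and 0.09 with acetaminophen plus G-CSF in the treated pairs). Of the list with mir-2137, mir-5099, mir-6236, mir-6239 and mir-6240, 5 passed, 2 were higher and none lower (median 0.84).

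The miR-29 family and the list of miR-26 and miR-101 split by member. mir-29a, a repressor of collagens, had 1498 counts (0.179%) in hepatocytes, against 9587 (0.733%) in liver, 4.11-fold (95% interval 3.89 to 4.34) lower, and mir-29c had a log2 ratio of -1.13. In contrast mir-29b-1 and mir-29b-2 were higher (log2 1.15 and 1.51). The family median was 0.01, and 1.14 with TMM, where mir-29a and mir-29c were no longer called. In the acetaminophen pair all 4 hairpins were called lower, and the family medians of the treated pairs were -1.56 with acetaminophen and -0.54 with acetaminophen plus G-CSF. All 3 miR-26 hairpins were called lower on shares (log2 -1.66 to -1.67, and not called with TMM), against the higher miR-101 hairpins (log2 2.0 to 2.02), for a median of 0.17, against -1.17 with acetaminophen and -0.89 with acetaminophen plus G-CSF in the treated pairs.

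Hairpins that lie together in the genome differed together in some clusters and not in others. Of 220 hairpins that could be located in RefSeq, 93 lay within 10 kb of another and formed 37 clusters. In 27 of them all ratios had 1 sign on shares, where most hairpins are below 0, and in 17 with TMM. The median range within a cluster was 1.75 on the log2 scale. In 13 clusters the ratios ranged over more than 2. The widest were the X-linked paralogue of miR-17-92, with a range of 6.18, miR-17-92 itself with 5.98, and the mir-503 cluster with 5.63. The cluster of mir-194-2 and mir-192 ranged over 1.75 and that of mir-194-1 and mir-215 over 1.79, with mir-194 the lower in each. These 2 clusters are not separate observations, since mir-192 may share reads with mir-215 and both mir-194 copies encode 1 mature miRNA. In contrast the mir-145a and mir-143 pair ranged over 0.888 and mir-199a-2 with mir-214 over 0.901. Entries of a cluster can have similar sequence and may share reads.

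**Figure D4:**
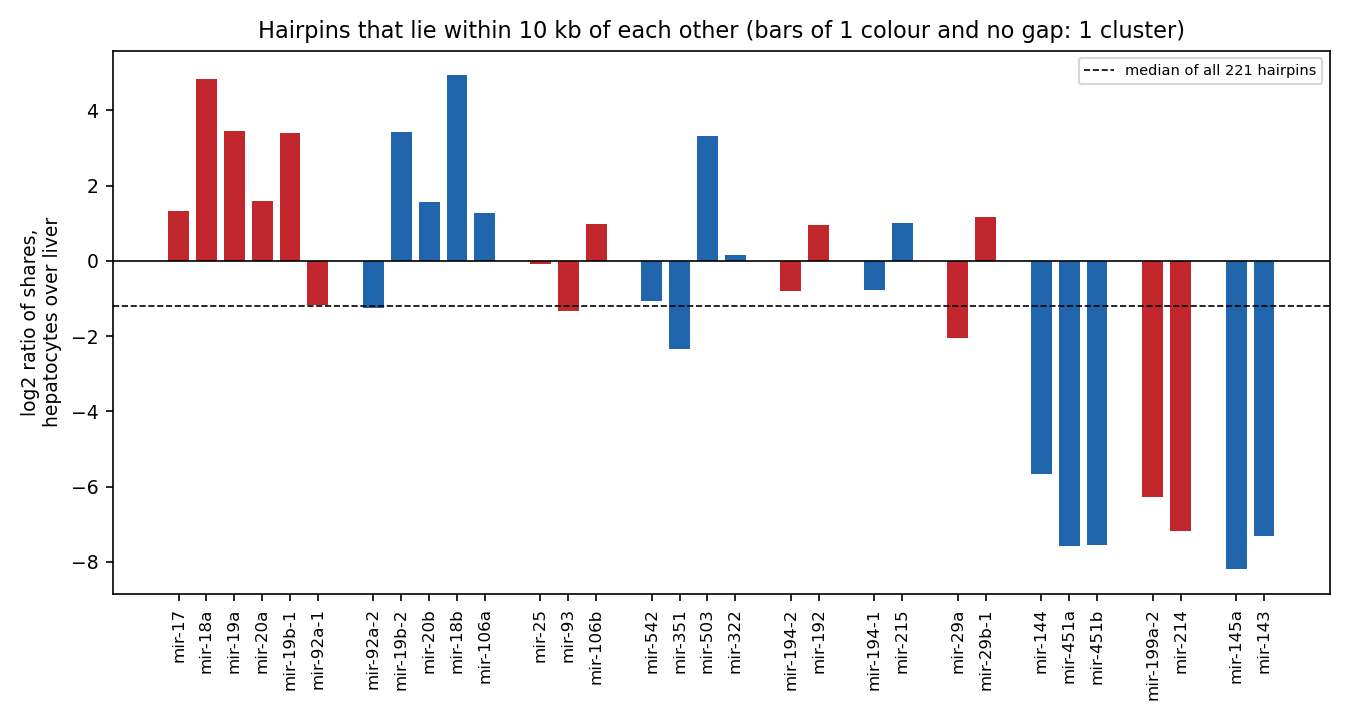
log2 ratio of shares, untreated hepatocytes over untreated liver (bars, y axis), for the hairpins of 10 genomic clusters, neighbours side by side in 1 colour. The dashed line is the median of all 221 hairpins. Bars of the mir-144, mir-199a-2 and mir-145a clusters all point down, while bars of the mir-17, mir-92a-2, mir-503 and both mir-194 clusters point both ways.

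Counts of mature miRNAs, deposited as a separate table of the same columns, gave ratios of mostly the same sign at much lower depth, 26741 counts in hepatocytes and 49330 in liver. Of 68 mature miRNAs with 100 or more counts in either column, 7 were called higher (10.3%), 40 lower (58.8%) and 21 were not called. With TMM 8 were higher and 15 lower, so most lower calls depend on the scaling. The sign was that of the hairpin for 67 of the 68, and the log2 ratios lay within 0.5 of each other for 57. miR-5099 was the exception in sign, at -0.05 against 1.05 for its hairpin. let-7f-5p differed more than most others, at -1.58 against -0.56. miR-21a-5p had 5536 and 289.7 mature counts, 20.7% of hepatocyte and 0.587% of liver mature counts. miR-145a-5p had 1.83 mature counts in hepatocytes and 896 in liver. miR-214-3p, with 0 and 119, was at least 21.5-fold lower in hepatocytes against a floor of 3 counts. miR-143-3p, with 0 and 83, was at least 15.00-fold lower. miR-150-5p had 0 and 41, miR-142a-3p 0 and 15, and miR-451a 1 and 87.

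**Figure D5:**
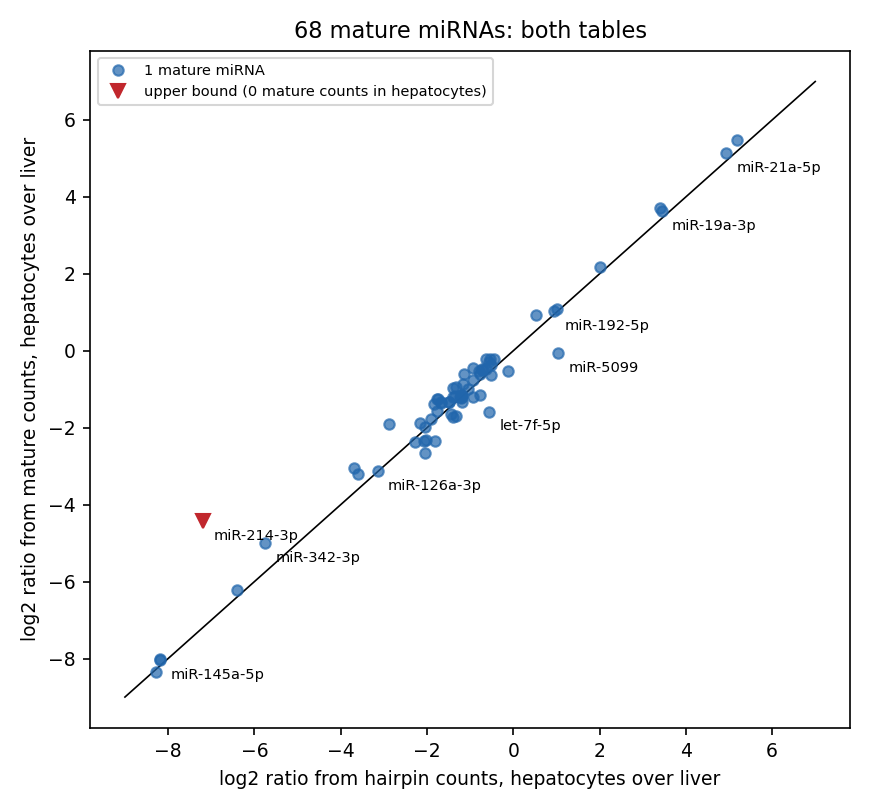
log2 ratio, untreated hepatocytes over untreated liver, from hairpin counts (x axis) and from mature counts (y axis) for 68 mature miRNAs, 1 point each, with the line of equality. The triangle marks miR-214-3p, with 0 mature counts in hepatocytes, as a bound set by the floor of 3 counts. Points follow the line from miR-145a-5p to miR-21a-5p, and miR-5099 and let-7f-5p lie below it.

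Mature miRNAs that share a seed can be summed, since they act on overlapping targets. The 59 mature miRNAs with a RefSeq sequence carried 39 seeds, 11 of them shared, and the sums cover these 59 alone. The let-7 seed GAGGUAG, with 8 miRNAs, took 2.80% of hepatocyte mature counts and 10.2% of liver mature counts. The miR-19 seed GUGCAAA took 8.27% and 0.645%, and the seed of miR-192 and miR-215, UGACCUA, 4.63% and 2.22%. The miR-15/16 seed AGCAGCA, with 4 miRNAs, took 2.76% and 3.87%, and the seed GUAAACA of miR-30a, miR-30c and miR-30e, without miR-30b and miR-30d, 3.03% and 5.58%. TMM moved mature log2 ratios up by 0.91, which turns the direction of these last 2 sums, that of GUAAACA to near equality.

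The choice of hairpin arm was shared by the 2 materials. In 57 miRNAs with 20 or more counts over both arms in each column, the major arm was the same in all 57, and the share of the 5p arm lay within 5 percentage points for 47. miR-503 differed most, with 98.7% of its counts on the 5p arm in hepatocytes (78 of 79 counts, Wilson interval 93.2 to 99.8%) and 61.9% in liver (13 of 21, 40.9 to 79.2%). miR-22, a liver miRNA of lipid metabolism, had 18.8% on the 5p arm in hepatocytes (11.4 to 29.6%) and 3.15% in liver (1.77 to 5.55%). miR-125a had 84.4% in hepatocytes (68.2 to 93.1%) and 96.9% in liver (94.4 to 98.3%). These 3 were chosen as examples after their values were seen, and the intervals cover counting error alone.

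Over all 3 columns of each material, many more hairpins were lower throughout in hepatocytes than were higher throughout. The count limit, which 75 of the 221 hairpins passed through untreated liver alone, favours this split. Of the 221 hairpins, 98 (44.3%) were below every liver column in every hepatocyte column, 4 (1.81%) were above, and 119 overlapped. Of the 124 called lower in the untreated pair, 81 were below throughout, and of the 47 lower by 10-fold or more, 42 were. Of the 30 called higher, 2 were above throughout, mir-215 and mir-362. In the acetaminophen pair, where 11.8% of hairpins were called higher and 53.2% lower, 5 of the 30 were called higher and 13 lower. In the acetaminophen plus G-CSF pair, with 13.6% higher and 59.7% lower, 8 of the 30 were called higher and 9 lower. Of the 124, 80 and 91 were called lower in these pairs, and 9 were called higher in each. The treatments of the 2 materials differed in dose and setting, so the treated pairs are shown beside the untreated pair and are not its replicates.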

How the data were processed

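Total RNA was taken with a Norgen kit, and the small RNA kit was Ion Total RNA-Seq v2, per the labels. The values are estimated counts per hairpin and per mature miRNA, deposited without normalisation. They need not be whole: 58.1% of the values above 0 in the untreated hepatocyte and liver columns were whole within 0.001. The column names carry no instrument. Each column was taken to combine the PGM and the Proton library whose titles match its name. Aligner, annotation, genome build and the division of reads that match several entries: not given in the sources used here. Samples were grouped by the treatment label and matched to columns by title. Names drop the species prefix.

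Each count was divided by its column total, 838624 for hepatocytes and 1307523 for liver. The ratio of shares carries an exact conditional (Clopper-Pearson) 95% interval, and shares carry Wilson intervals, for counting error only (scipy 1.17.1). A count of 0 was set to a floor of 3 counts per column. With 1 column a side no test or p-value was possible. edgeR 4.0.16 and DESeq2 1.42.0 served only for scaling factors, on rounded counts. Arms needed 20 counts in each column. Hairpins were merged as similar where an 18-base window matched with at most 3 mismatches and counts lay within 1.5-fold. A sequence was at hand for 192 of the 221 hairpins. Pairs lacking one were merged where their names had the same number and counts lay within 1.5-fold. mir-6402 and mir-21c stayed separate signals. The calling rule was also run on simulated counts with counting error alone, which cannot show its behaviour with variation between libraries or cultures.

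Named hairpins were the 10 largest of each column, the 12 largest ratios per direction among those called with a share of 0.1% or more, and every hairpin above the limit of 8 lists (hepatocyte, endothelial, stellate, smooth muscle, leukocyte, erythroid, epithelial, and injury and growth). The hairpins, the rule and the 25 lists were chosen with earlier results of these data known. Alternatives were other scalings, count minimums, a 3-fold limit, copies summed, the mature table and the treated columns.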

Additional observations from a re-analysis of the deposited data

Results flagged for a closer look

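Several hairpins lay on opposite sides of equality, past 2-fold, in the untreated pair and in a treated pair of columns, as log2 ratios of hepatocytes over liver. The differences between pairs were not tested, since each pair has 1 column a side. mir-21a was at 4.93 in the untreated pair, -1.32 with acetaminophen and -1.24 with acetaminophen plus G-CSF. mir-3965, which may share its reads in part, was at 4.94, -1.28 and -1.23 in the same order, and mir-21b at 5.20, -1.15 and -1.84. mir-21c was at 5.41 in the untreated pair and -1.47 with acetaminophen plus G-CSF. mir-7a-2 was at 2.63, -2.49 and -4.89, and its treated hepatocyte shares rest on few counts. mir-200c went the other way, at -4.13 in the untreated pair and 1.49 with acetaminophen plus G-CSF, where its liver share was 0.0106%.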

How the results depend on the processing

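No paired analysis was possible because the deposited columns carry no replicate numbers and each group has 1 column. With TMM the counts of higher and lower hairpins were 53 and 66 and the median log2 ratio -0.069, and with DESeq2 size factors 53, 66 and -0.043. The median was -0.81 with totals that leave out mir-122, mir-21a, mir-21b and mir-21c but keep mir-3965. It was -0.47 with totals that leave out mir-21a, mir-21b, mir-21c and mir-3965, an alternative chosen after seeing the data. These totals gave 40 and 43 higher hairpins. A count minimum of 10 gave 52 higher and 237 lower of 438. Minimums of 50 and 200 and summing copies kept both counts within 1.5 times. With similar hairpins summed, also chosen after seeing the data, 18 were higher and the median was -1.31. The mature table gave 7 higher and 40 lower on shares, and 8 and 15 with TMM. The median was -1.38 in the acetaminophen columns and -1.84 in the acetaminophen plus G-CSF columns. Under a 3-fold limit, 21 were higher and 91 lower. Turned in sign with acetaminophen were the medians of the hepatocyte list (1.02), miR-17-92 (-0.98), miR-30 (0.11), miR-29 (-1.56), miR-26 with miR-101 (-1.17), miR-378 (2.53), miR-130 (2.11) and Sfmbt2 (1.05), and, of called hairpins under the naming rule, mir-21a (-1.32), mir-3965 (-1.28), mir-21b (-1.15), mir-21c (-0.80), mir-19b-1 (-0.13), mir-19b-2 (-0.051), mir-19a (-0.064), mir-191 (0.88), mir-18b (-0.84), mir-18a (-0.82) and mir-7a-2 (-2.49). Turned with acetaminophen plus G-CSF were epithelial (0.85), miR-17-92 (-0.055), miR-30 (0.52), miR-29 (-0.54), miR-26 with miR-101 (-0.89), miR-148b with miR-152 (-0.24), miR-378 (2.29), miR-130 (1.23), Sfmbt2 (0.81) and SINE-like (0.090) medians, and, of the same hairpins, mir-21a (-1.24), mir-3965 (-1.23), mir-21b (-1.84), mir-21c (-1.47), mir-18b (-0.043), mir-7a-2 (-4.89) and mir-200c (1.49). The cause was not tested. The mature table, with 26741 and 49330 counts, limits what can be seen of rare miRNAs.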
